A study of Mus musculus with 12 samples.

Results

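Fc and scavenger receptors are the cell-surface proteins with which macrophages bind antibody-coated particles, modified lipoproteins, apoptotic cells and fungal glucans. The 10 genes described here were chosen by name: Fcgr1, Fcgr2b, Fcgr3, Fcgr4 and Fcer1g of the Fc receptors, Msr1 and Marco of the class A scavenger receptors, the receptor kinases Mertk and Axl, and the C-type lectin Clec7a. All 10 were found among the 23474 genes of the table. Their mRNA was measured by RNA-seq in whole epididymal white adipose tissue (eWAT) of male C57BL/6J mice aged 17 weeks, in 12 libraries, 3 from each of 4 groups. For 12 weeks the ND group ate a normal diet, the HFD group a high-fat diet, the GT group the high-fat diet with an ethanol extract of green tea at 0.25% (w/w), and the TJ group the high-fat diet with 3% (w/w) Taeeumjowuitang, a herbal medicine used in Korea against obesity. The groups held 10 individually housed mice each. HFD and TJ libraries each came from a single randomly selected mouse. The sources used here do not say this for the ND and GT libraries, so p-values with those groups measure only the spread between the libraries. GT and TJ differ in both agent and dose.

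FPKM values (fragments scaled to transcript length and library depth) summed to between 527904 and 1002765 per library. The step between the lowest values corresponded to roughly 10.1 to 19.8 M fragments per library, too approximate for counting intervals. ND replicate 1 stood apart. It held the lowest depth, and its 8 testis germ cell markers (such as Prm1 and Tnp2) summed to 98970.68 FPKM, against 0.69 to 2980.38 FPKM in the other 11 libraries. Its 8 epididymis markers summed to 16309.57 FPKM, and its 7 adipocyte markers to 4103.94 FPKM, against 17182.59 FPKM or more elsewhere. The tissue label therefore held for 11 libraries by their adipocyte markers, and each comparison with ND is given with and without ND replicate 1. Epididymis markers were also raised in HFD replicate 2 (1275.19 FPKM), and germ cell markers in HFD replicate 1 (2060.54 FPKM) and ND replicate 3 (2980.38 FPKM).

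Fc gamma receptors bind the constant part of IgG. FcγRI, FcγRIII and FcγRIV, encoded by Fcgr1, Fcgr3 and Fcgr4, activate the cell through the signalling chain FcRγ (Fcer1g), whose ITAM motif recruits the kinase Syk, whereas FcγRIIb (Fcgr2b) carries an inhibitory ITIM motif of its own. Class A scavenger receptors take up modified lipoproteins and bacteria, Mertk and Axl recognise dying cells through the bridging proteins Gas6 and protein S, and Clec7a encodes Dectin-1, which binds β-glucan and also signals through Syk. In obese adipose tissue, macrophages gather around dying adipocytes, and receptors of these kinds are among the genes by which they are recognised.

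Fcgr2b (ENSMUSG00000026656, chr1:170958617-170976547), Fcgr4 (ENSMUSG00000059089, chr1:171018920-171029761) and Fcgr3 (ENSMUSG00000059498, chr1:171051174-171064935) lie close together on chromosome 1 of GRCm38, and the coding sequences of Fcgr2b and Fcgr3 share a long stretch. The longest stretch of identical sequence in their transcripts (GENCODE release M21) is printed because fragments that fall wholly inside it could be given to either gene. It runs over 129 bases of exons 3 to 4 in each gene, at chr1:170966674-170968081 in Fcgr2b and chr1:171054167-171057792 in Fcgr3, both on the minus strand.
Fcgr2b and Fcgr3, shared: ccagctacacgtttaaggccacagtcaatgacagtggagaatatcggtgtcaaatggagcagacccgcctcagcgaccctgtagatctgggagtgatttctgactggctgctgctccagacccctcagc
Windows of 100 bases found in the other gene made up 3.53% of the longest coding transcript of Fcgr3 and 1.28% of that of Fcgr2b, and no other pair of Fc gamma receptor genes shared such a window. The authors' multiread correction divides such fragments between genes, so that part of the values of Fcgr2b and Fcgr3 is uncertain. Annotated antisense genes overlap Fcgr2b (Gm38204) and Mertk (Gm14011). Whether strand was used in counting is not given in the sources used here, so fragments of these partners cannot be told apart.

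The 120 bases before the start site are printed for the 4 Fc gamma receptor genes, since 3 of them had no overlap between HFD and the GT or TJ group, whereas Fcgr2b overlapped. They were taken from RefSeq promoters of GRCm38.p6. Capitals mark GAGGAA, a purine-rich sequence bound by factors such as PU.1, found here on the opposite strand as TTCCTC. The shorter GGAA inside it was not marked, and it also occurs in the window of Fcgr2b.
Fcgr1, chr3:96293970-96294089, minus strand: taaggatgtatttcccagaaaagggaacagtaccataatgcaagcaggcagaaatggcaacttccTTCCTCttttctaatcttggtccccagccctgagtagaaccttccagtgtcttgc
Fcgr3, chr1:171059395-171059514, minus strand: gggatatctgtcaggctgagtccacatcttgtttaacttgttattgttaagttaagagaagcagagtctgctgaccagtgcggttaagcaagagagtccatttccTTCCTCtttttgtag
Fcgr4, chr1:171018806-171018925, plus strand: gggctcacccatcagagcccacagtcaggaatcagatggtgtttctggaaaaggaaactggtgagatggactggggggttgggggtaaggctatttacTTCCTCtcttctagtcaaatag
Fcgr2b, chr1:170976072-170976191, minus strand: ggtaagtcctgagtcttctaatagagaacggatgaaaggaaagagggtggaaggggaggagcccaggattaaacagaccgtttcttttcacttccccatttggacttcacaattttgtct
The match lay 49 bases before the start site in Fcgr1, 16 bases before it in Fcgr4 and 9 bases before it in the window printed for Fcgr3. Searched on both strands of the full 300-base windows, GAGGAA was present for 6 of the 9 genes with a promoter in the table (Fcgr1, Fcgr3, Fcgr4, Axl, Clec7a and Marco), and in 28.3% of all 32851 promoters. The longer GAGGAAGT, which contains it, was found in Fcgr4 alone of the 9, and in 3.2% of all promoters. TTCNNNGAA, the core bound by STAT factors, was found in Fcgr1 alone of the 9, and in 8.3% of all promoters. These matches describe letters in the windows and are not measured binding sites. Msr1 was the gene without a promoter.

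Since FPKM is scaled to transcript length, levels can be ordered between genes. In the HFD group Fcer1g stood highest at 173 ± 27.1 FPKM (SD, n = 3), followed by Fcgr3 at 156 ± 18.3 FPKM and Axl at 121 ± 13.4 FPKM, and the ranges of neighbouring genes overlapped among these 3. Clec7a (65.3 ± 7.14 FPKM) lay below Axl and above Fcgr2b (41.9 ± 4.26 FPKM) without overlap. The ranges of Fcgr2b and Msr1 (33.4 ± 7.37 FPKM) overlapped, as did those of Mertk, Fcgr4 and Fcgr1, whose means lay between 12.5 and 14.8 FPKM. Marco was the lowest gene in every group, with group means of 0.651 to 1.76 FPKM, and its range overlapped that of Fcgr1, its nearest neighbour, in the ND group. The order changed with the diet: in ND the highest mean was that of Axl (32.5 ± 19.1 FPKM), whose range overlapped that of Fcer1g (27.1 ± 8.07 FPKM), and Mertk (7.59 ± 5.97 FPKM) came before Clec7a (3.71 ± 3.15 FPKM), with overlapping ranges. These overlaps rested on ND replicate 1. In ND replicates 2 and 3 alone, Axl lay above Fcer1g, Mertk above Clec7a and Fcgr1 above Marco without overlap.

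**Figure D1:**
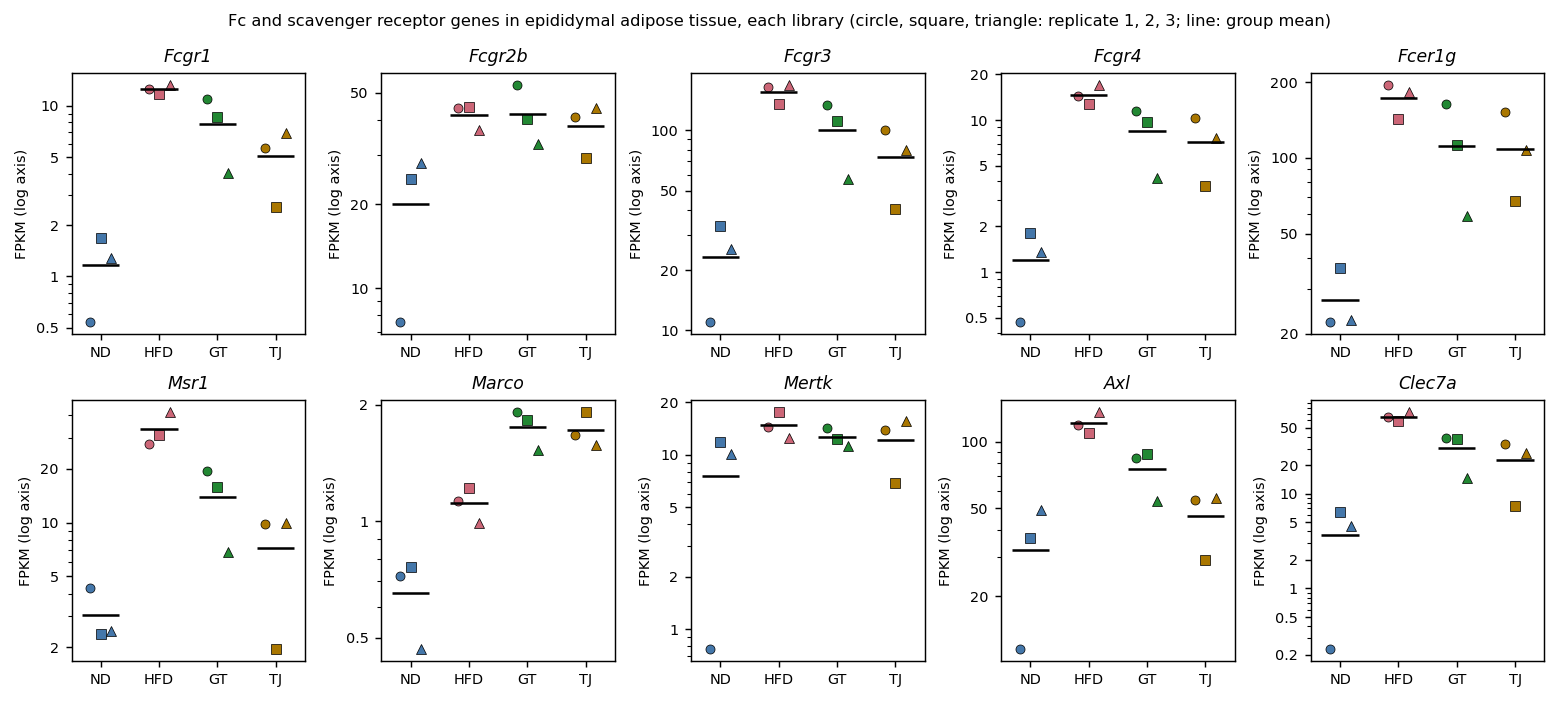
FPKM of each of the 10 genes (vertical log axes, a separate range for each gene) in the 12 libraries, by group on the horizontal axis. Each point is a library (circle, square and triangle for replicates 1, 2 and 3) and each line a group mean of 3. All HFD values lay above all ND values in every panel, TJ replicate 2 was the lowest TJ library in every panel but Marco, and Marco alone had all GT and TJ values above all HFD values.

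The comparison of HFD with ND asks what the high-fat diet changed. In all 10 genes the 3 HFD values lay above the 3 ND values, as in 20.5% of the genes tested, and ratios of the group means ran from 1.71 for Marco to 17.6 for Clec7a. Without ND replicate 1 they ran from 1.35 for Mertk to 13.8 for Msr1. With limma on log2(FPKM + 1) and Benjamini-Hochberg adjustment over 14430 genes, 5 of the 9 genes that passed the filter on low values (a mean of at least 1 FPKM) were called higher, where 1.73% of all tested genes were. A call needed an adjusted p under 0.05 and a fold of 1.5. The genes were Fcgr1, Fcgr3, Fcgr4, Fcer1g and Msr1. Marco had a mean under 1 FPKM and was not tested. For all tested genes the median log2 difference was 0.07, or -0.07 with median-of-ratios scaling, and relative to it the 9 genes ran from 1.13 for Fcgr2b to 4.10 for Clec7a. Without ND replicate 1, 8 of 9 were called (all but Mertk), against 11.0% of 13661 genes. In 1 fit over the 11 libraries without it, 7 of 10 were called, against 13.5% of all genes, and Fcgr2b, Mertk and Marco were not. Without any other single library (ND replicate 2 or 3, or HFD replicate 1, 2 or 3), and with the replicate number as a block, 0 were called, and the block left 0.0% of all genes called. Of all genes, 0.165% were called higher without ND replicate 2, 0.161% without ND replicate 3 and 0.0% without any single HFD library. With the block, 7 of the 9 had an unadjusted p under 0.05, against 15.5% of all genes.

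The comparison of TJ with HFD asks what TJ changed on the high-fat diet. Means of 9 of the 10 genes were lower in the TJ group, from 0.217 times the HFD mean for Msr1 to 0.910 times for Fcgr2b, and that of Marco was higher. In limma 4 of 10 were called lower (Fcgr1, Fcgr3, Msr1 and Axl), against 11.1% of 12807 genes, and 0 were called higher, against 7.41%. In 6 genes (these 4, Fcgr4 and Clec7a) all TJ values lay below all HFD values, as in 31.4% of all tested genes, and in 1 (Marco) all lay above, as in 20.1%. The median log2 fold change of the 10 genes was -1.09. Over all tested genes the median was -0.14, and median-of-ratios scaling brought it to -0.02, a shift of more than 0.1. For this reason log2 fold changes in TJ against HFD are also given relative to the median of all genes. Without TJ replicate 2 the called genes numbered 6, with Fcgr4 and Clec7a added, against 9.53% of all genes. With TJ replicate 1 or any single HFD library left out, 0 of the 10 and 0 of all genes were called.

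The comparison of GT with HFD asks the same of green tea extract, and it used the same HFD libraries as the TJ comparison. In limma 0 of 10 genes were called, against 1.81% of 12766 genes called lower and 1.83% called higher, and 4 had an unadjusted p under 0.05 (Fcgr4, Msr1, Axl and Clec7a), against 29.3% of all genes. Means of 8 genes were lower in GT, from 0.420 times the HFD mean for Msr1 to 0.849 times for Mertk. The means of Fcgr2b differed by a ratio of 1.01. For all tested genes the median log2 difference was -0.12, or -0.0068 with median-of-ratios scaling, and relative to it the values ran from -1.16 for Msr1 to 0.50 for Marco. The same 6 genes whose TJ values lay below HFD also had all 3 GT values below all HFD values, which 24.4% of tested genes did, and all those of Marco lay above, as in 12.3%. Without GT replicate 1, 1 gene (Msr1) was called lower, against 5.7% of all genes. Between TJ and GT, limma called 0 of 10 genes, against 0.148% of 12187, and 1 (Axl) had an unadjusted p under 0.05, against 24.6% of all genes.

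**Figure D2:**
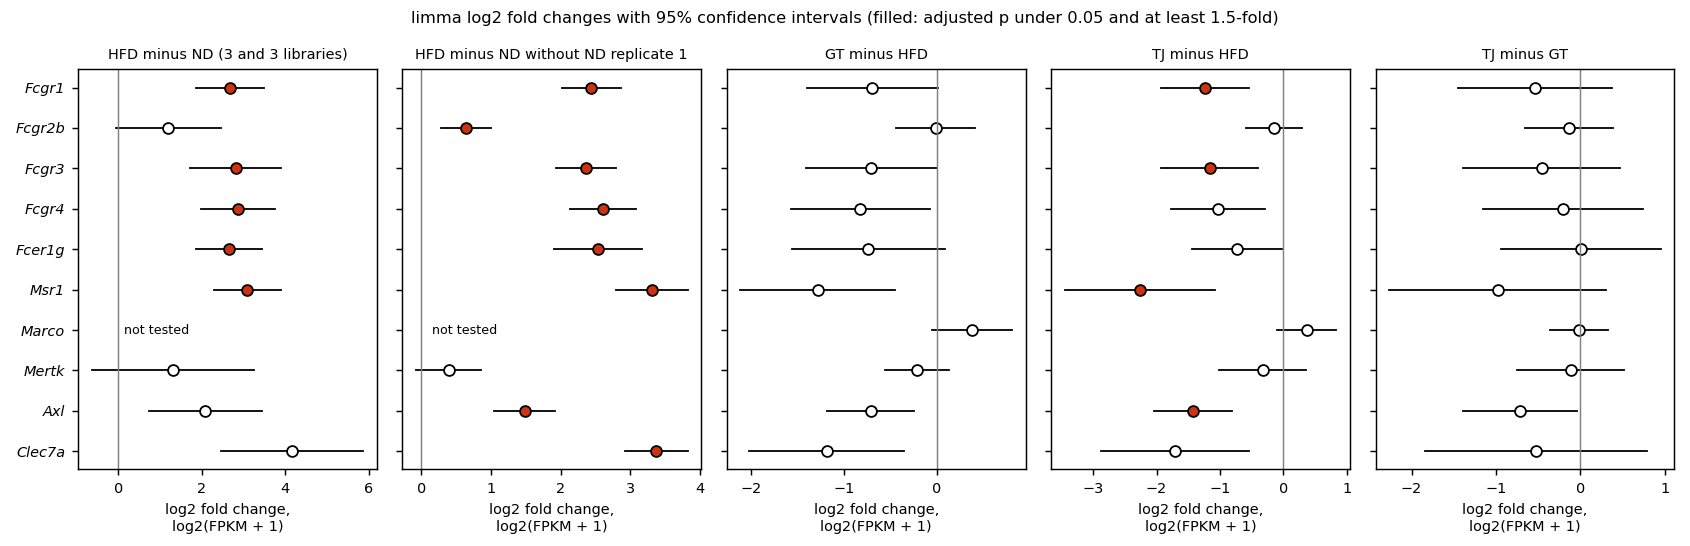
Log2 fold changes on the log2(FPKM + 1) scale (horizontal axes, with ranges that differ between panels) for each gene (vertical axis) in 5 comparisons, as points with 95% confidence intervals from limma. Filled points were called: 5 for HFD minus ND, 8 without ND replicate 1, 0 for GT minus HFD, 4 for TJ minus HFD and 0 for TJ minus GT. All are from fits without the replicate block, with which 0 were called for HFD minus ND. Marco was not tested against ND.

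Among the activating Fc gamma receptors, Fcgr3, which encodes FcγRIII, was the most abundant. Its values were 11.0, 33.3 and 25.7 FPKM in ND replicates 1 to 3, 165, 135 and 168 FPKM in HFD, 134, 111 and 57.4 FPKM in GT and 101, 40.5 and 79.6 FPKM in TJ. All HFD values lay above those of the other 3 groups, and TJ replicate 2 and GT replicate 3 were the lowest of their groups. The HFD mean was 6.68 times that of ND (5.29 times without ND replicate 1), with a log2 fold change of 2.81 (standard error, SE, 0.45, adjusted p = 0.047 by limma, or 0.132 with the block), and 2.37 (SE 0.17, adjusted p = 0.00162 by limma) without ND replicate 1. In TJ against HFD it was -1.16 (SE 0.32, adjusted p = 0.0465 by limma), or -1.02 relative to all genes, and with median-of-ratios scaling Fcgr3 was no longer called (adjusted p = 0.0557 by limma). For GT against HFD it was -0.71 (SE 0.30, adjusted p = 0.172 by limma).

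Fcgr4 (FcγRIV) had 0.470, 1.79 and 1.36 FPKM in ND, 14.3, 12.8 and 17.0 FPKM in HFD, 11.5, 9.66 and 4.18 FPKM in GT and 10.2, 3.67 and 7.59 FPKM in TJ. The HFD values again exceeded all others, and ND replicate 1 was the lowest library. Its log2 fold change in HFD against ND was 2.87 (SE 0.36, adjusted p = 0.026 by limma, or 0.114 with the block), and 2.60 without ND replicate 1. In TJ against HFD it was -1.03 (SE 0.31, adjusted p = 0.057 by limma) or -0.89 relative to all genes, which missed the threshold although the groups did not overlap, and in GT against HFD -0.82 (adjusted p = 0.145 by limma).

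Fcgr1 (ENSMUSG00000015947, chr3:96282909-96293969) encodes FcγRI, the high-affinity receptor for IgG. It had 0.541, 1.69 and 1.29 FPKM in ND, 12.5, 11.7 and 13.2 FPKM in HFD, 10.9, 8.63 and 4.02 FPKM in GT and 5.68, 2.54 and 6.96 FPKM in TJ. No GT or TJ library reached the HFD values, and GT replicate 1 came closest. Fcgr1 rose in HFD against ND by a log2 fold change of 2.67 (SE 0.33, adjusted p = 0.026 by limma, or 0.12 with the block), and by 2.44 without ND replicate 1. It fell in TJ against HFD, by a log2 fold change of -1.23 (SE 0.29, adjusted p = 0.0355 by limma) or -1.09 relative to all genes. Against HFD, GT was at -0.70 (adjusted p = 0.176 by limma).

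Fcgr2b encodes the inhibitory receptor. It had 7.58, 24.6 and 28.1 FPKM in ND, 44.0, 44.6 and 36.9 FPKM in HFD, 53.4, 40.2 and 32.9 FPKM in GT and 41.0, 29.1 and 44.1 FPKM in TJ. HFD lay above ND, but GT and TJ overlapped with HFD. Its log2 fold change in HFD against ND was 1.20 (SE 0.52, adjusted p = 0.457 by limma). Without ND replicate 1 it was 0.64 (SE 0.14, adjusted p = 0.0385 by limma), a call that was lost in the fit over 11 libraries (SE 0.23, adjusted p = 0.067 by limma). Between TJ and HFD it was -0.15, with a 95% confidence interval from -0.59 to 0.29, and -0.01 relative to all genes. Between GT and HFD it was -0.01 (interval from -0.44 to 0.42), and 0.12 with median-of-ratios scaling.

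The ratio of activating over inhibitory receptor mRNA in whole tissue does not depend on how libraries are scaled to each other. It does not give the balance within a cell type. Fcgr3 made up most of the activating sum, with an HFD mean of 156 FPKM, against 14.7 FPKM for Fcgr4 and 12.5 FPKM for Fcgr1. Part of the values of Fcgr3 and Fcgr2b is uncertain because of their shared sequence. The summed FPKM of Fcgr1, Fcgr3 and Fcgr4 over that of Fcgr2b was 1.59, 1.49 and 1.01 in ND, 4.35, 3.58 and 5.37 in HFD, 2.92, 3.21 and 1.99 in GT and 2.85, 1.60 and 2.13 in TJ. The HFD ratios lay above those of every other library, and the TJ and GT ratios together lay between 1.60 and 3.21. The mean log2 ratio differed by 1.71 between HFD and ND (1.83 without ND replicate 1), by -1.03 between TJ and HFD and by -0.72 between GT and HFD. In a two-sided exact permutation test each had p = 0.1, the smallest that 3 libraries against 3 can give, so none of the 13 ratios examined in this way could pass a threshold of 0.05. Between TJ and GT the ratios overlapped, with a difference of -0.31 (exact permutation p = 0.4).

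Fcer1g (ENSMUSG00000058715, chr1:171229572-171234365) encodes the FcRγ chain, which FcγRI, FcγRIII and FcγRIV need for signalling, and which mast cells and NK cells also use. It had 22.3, 36.4 and 22.6 FPKM in ND, 195, 143 and 182 FPKM in HFD, 163, 112 and 58.8 FPKM in GT and 152, 67.1 and 107 FPKM in TJ. TJ replicate 1 and GT replicate 1 lay inside the HFD range. Fcer1g rose in HFD against ND by a log2 fold change of 2.66 (SE 0.32, adjusted p = 0.0247 by limma, or 0.12 with the block), and by 2.54 without ND replicate 1. In TJ against HFD the value was -0.73 (SE 0.30, adjusted p = 0.11 by limma), or -0.59 relative to all genes, and in GT against HFD -0.74 (SE 0.35, adjusted p = 0.21 by limma).

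The FPKM of Fcer1g over the sum of the 3 receptors it serves was 1.30, 1.44 and 1.14 in TJ, above the HFD (0.895 to 1.02) and GT ratios (0.871 to 1.05). The difference in mean log2 ratio was 0.45 between TJ and HFD and 0.46 between TJ and GT (exact permutation p = 0.1 for each). In ND the ratio was 1.85 in replicate 1 and 0.989 and 0.799 in replicates 2 and 3, so that HFD and ND overlapped. The summed level of 6 mast cell markers was 32.1 to 48.2 FPKM in HFD, 12.6 to 13.7 FPKM in GT and 9.67 to 10.8 FPKM in TJ, and it was 10.6, 15.5 and 29.4 FPKM in ND replicates 1 to 3. That of 5 NK cell markers was 2.72 to 5.14 FPKM in HFD, 3.93 to 5.24 FPKM in GT and 4.30 to 6.41 FPKM in TJ. In ND it was 1.86 to 19.15 FPKM, the highest in replicate 1, where Klrb1c alone had 18.3 FPKM. The part of these cells in the ratio was not tested.

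Msr1 (ENSMUSG00000025044, chr8:39581685-39642673) encodes scavenger receptor A, which internalises modified lipoproteins. Its values were 4.29, 2.38 and 2.48 FPKM in ND, 27.6, 30.9 and 41.7 FPKM in HFD, 19.4, 15.8 and 6.89 FPKM in GT and 9.78, 1.96 and 10.0 FPKM in TJ. TJ replicate 2 lay below all ND values. Axl and Mertk also had TJ replicate 2 below ND replicates 2 and 3, though not below ND replicate 1. Msr1 rose in HFD against ND by a log2 fold change of 3.10 (SE 0.33, adjusted p = 0.0208 by limma, or 0.109 with the block), and by 3.31 (adjusted p = 0.00111 by limma) without ND replicate 1. It had the lowest log2 fold change of the 10 in TJ against HFD, -2.26 (SE 0.50, adjusted p = 0.0311 by limma), or -2.13 relative to all genes. Without TJ replicate 2 its log2 fold change was -1.64, the smallest in size when any single library was left out. The GT libraries differed from HFD by -1.28 (SE 0.35, adjusted p = 0.0768 by limma).

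Marco (ENSMUSG00000026390, chr1:120474538-120505024) encodes a scavenger receptor of resident macrophages such as those of the lung and spleen marginal zone. It had 0.722, 0.764 and 0.468 FPKM in ND, 1.13, 1.22 and 0.992 FPKM in HFD, 1.92, 1.83 and 1.53 FPKM in GT and 1.68, 1.92 and 1.58 FPKM in TJ. The GT and TJ values lay above HFD, opposite to the other scavenger receptor, and HFD lay above ND. Neither difference passed limma: the log2 fold change was 0.36 (SE 0.20, adjusted p = 0.202 by limma) in TJ against HFD and 0.38 (SE 0.18, adjusted p = 0.212 by limma) in GT against HFD. Relative to all genes both were 0.50. A pseudocount of 1 shrinks fold changes at such levels, and the ratio of the mean FPKM was 1.55 for TJ and 1.58 for GT.

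Axl (ENSMUSG00000002602, chr7:25757273-25788705) is the receptor kinase that macrophages raise in inflamed tissue and that stromal cells also express. It had 11.6, 36.8 and 49.0 FPKM in ND, 119, 110 and 136 FPKM in HFD, 84.0, 87.7 and 53.8 FPKM in GT and 54.4, 29.2 and 55.4 FPKM in TJ. HFD lay above all other libraries, and the TJ values spanned a range that overlapped with ND and, through GT replicate 3, with GT. Axl fell in TJ against HFD by a log2 fold change of -1.42 (SE 0.26, adjusted p = 0.0248 by limma), or -1.28 relative to all genes. Between GT and HFD the value was -0.71 (SE 0.20, adjusted p = 0.0797 by limma), and in TJ against GT -0.71 (95% confidence interval from -1.39 to -0.03, adjusted p = 0.19 by limma). In HFD against ND the log2 fold change was 2.08 (adjusted p = 0.183 by limma), and without ND replicate 1 it was 1.49 (SE 0.17, adjusted p = 0.00622 by limma).

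Mertk (ENSMUSG00000014361, chr2:128698956-128802894) is the related kinase by which resident macrophages clear apoptotic cells. Its values were 0.772, 11.9 and 10.1 FPKM in ND, 14.4, 17.6 and 12.5 FPKM in HFD, 14.2, 12.3 and 11.3 FPKM in GT and 13.9, 6.93 and 15.5 FPKM in TJ. Apart from ND replicate 1 and TJ replicate 2, all libraries lay between 10.1 and 17.6 FPKM. It was not called in any of the 4 comparisons. The log2 fold change was 1.31 (SE 0.80, adjusted p = 0.496 by limma) in HFD against ND and 0.39 (adjusted p = 0.228 by limma) without ND replicate 1. Between TJ and HFD it was -0.33, with an interval from -1.01 to 0.36, and -0.19 relative to all genes.

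The ratio of Axl to Mertk separated the TJ group from HFD and GT. It was 8.22, 6.23 and 10.9 in HFD, 5.90, 7.13 and 4.77 in GT and 3.90, 4.21 and 3.57 in TJ. In ND it was 15.0 in replicate 1 and 3.10 and 4.85 in replicates 2 and 3. All TJ ratios lay below all HFD and all GT ratios, by -1.08 and -0.59 in mean log2 ratio (exact permutation p = 0.1 for each), while GT and HFD overlapped (-0.49, exact permutation p = 0.2). The HFD ratios overlapped with those of ND, but lay above ND replicates 2 and 3. The 6 stromal progenitor markers, of cells in which Axl is also found, summed to 1583.28 to 1731.33 FPKM in HFD, 950.72 to 1249.3 FPKM in GT and 679.63 to 934.74 FPKM in TJ. Their part in the Axl differences was not tested.

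Clec7a (ENSMUSG00000079293, chr6:129461591-129472779) encodes Dectin-1. The ratio of its HFD to ND means was 17.6, and 12.0 without ND replicate 1. It had 0.230, 6.36 and 4.54 FPKM in ND, 64.4, 58.7 and 72.9 FPKM in HFD, 39.0, 38 and 14.6 FPKM in GT and 33.9, 7.45 and 26.9 FPKM in TJ. The HFD values lay above all others, and TJ replicate 2 came close to the ND values. The log2 fold change in HFD against ND was 4.16 (SE 0.70, adjusted p = 0.0534 by limma). Without ND replicate 1 it was smaller and was called, at 3.37 (SE 0.18, adjusted p = 0.000935 by limma). In TJ against HFD it was -1.71 (SE 0.50, adjusted p = 0.0506 by limma) or -1.57 relative to all genes, narrowly over the threshold, and in GT against HFD -1.19 (SE 0.35, adjusted p = 0.0915 by limma).

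TJ and GT, given at different doses, were compared directly, and limma called 0 of the 10 genes, against 0.148% of 12187. Apart from Axl, the intervals of the TJ against GT log2 fold change all contained 0. They ran from -0.36 to 0.32 for Marco, the narrowest, and from -2.27 to 0.30 for Msr1, and from -1.84 to 0.79 for Clec7a, the widest. The largest point estimates were -0.98 for Msr1 and -0.71 for Axl, and that of Fcer1g was 0.01.

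The libraries also differed in their macrophage content as read from marker genes, and in whole tissue fewer cells of a type and less RNA per cell cannot be told apart. Summed over 8 markers (Adgre1, Cd68, Csf1r, Lyz2, Itgam, Cd14, Mpeg1 and Ptprc), the level was 59.35 to 567.36 FPKM in ND, 3124.74 to 4254.98 in HFD, 1268.38 to 2848.25 in GT and 727.98 to 2242.82 in TJ. Aif1, the ninth marker on the list, was left out of the sum because germ cells express it too. In limma 6 of the 9 markers were called lower in TJ than in HFD, 0 in GT than in HFD, and 2 higher in HFD than in ND (8 without ND replicate 1, 0 with the replicate block), against 11.1%, 1.81%, 1.73%, 11.0% and 0.0% of all genes. No macrophage marker was at 0 in all libraries. The 7 adipocyte markers ran the other way, at 17182.59 to 19582.2 FPKM in HFD, 23993.54 to 27523.64 in GT and 29215.34 to 59166.95 in TJ, where the highest value was that of TJ replicate 2. The part of these markers in the differences of the receptor genes was not tested.

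Set against Csf1r, the receptor for the macrophage growth factor, the genes differed in whether the groups overlapped. Csf1r itself was 174 ± 19.4 FPKM (SD, n = 3) in HFD, 110 ± 36.9 FPKM in GT, 66.1 ± 29.6 FPKM in TJ and 26.2 ± 18.5 FPKM in ND. Fcgr2b over Csf1r was 0.195 to 0.293 in HFD, 0.320 to 0.484 in GT, 0.479 to 0.907 in TJ and 0.673 to 1.59 in ND, so that HFD lay below the other groups. Mertk over Csf1r likewise was 0.0660 to 0.116 in HFD, and 0.163 to 0.216 in TJ and 0.162 to 0.325 in ND, with GT (0.0980 to 0.166) overlapping HFD. The mean log2 ratio of TJ over HFD differed by 1.36 for Fcgr2b and by 1.16 for Mertk (exact permutation p = 0.1 for each). Since the mean of Csf1r was itself lower in TJ than in HFD, any gene at equal levels in both groups has a higher ratio in TJ. These ratios do not give the level of a receptor per macrophage.

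The other receptors were compared with Csf1r in the same way. Between TJ and HFD the mean log2 ratio to Csf1r differed by 0.07 for Axl, 0.09 for Fcgr1 and -0.27 for Clec7a, and the groups overlapped in these 3. It differed by 0.34 for Fcgr3, 0.37 for Fcgr4 and 0.78 for Fcer1g, without overlap, and these ratios were higher in TJ. For Msr1 over Csf1r the difference was -1.0 between TJ and HFD and -0.64 between GT and HFD, without overlap in either. Between GT and HFD it was -0.50 for Clec7a and 0.70 for Fcgr2b, also without overlap, and the other 6 overlapped. Between HFD and ND it was 1.90 for Clec7a (1.37 without ND replicate 1) and -1.08 for Axl (-0.72 without ND replicate 1), both without overlap. Without ND replicate 1 it was 1.53 for Msr1, 0.85 for Fcgr1 and 0.99 for Fcgr4, also without overlap, whereas with it these groups overlapped (0.27, 0.35 and 0.59). None of these could reach a p under 0.1 in the exact permutation test. Ratios to Csf1r were computed for these receptor genes only, so the share of all genes without overlap is not given. Whether the receptor genes differ from other genes in this was not tested.

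**Figure D3:**
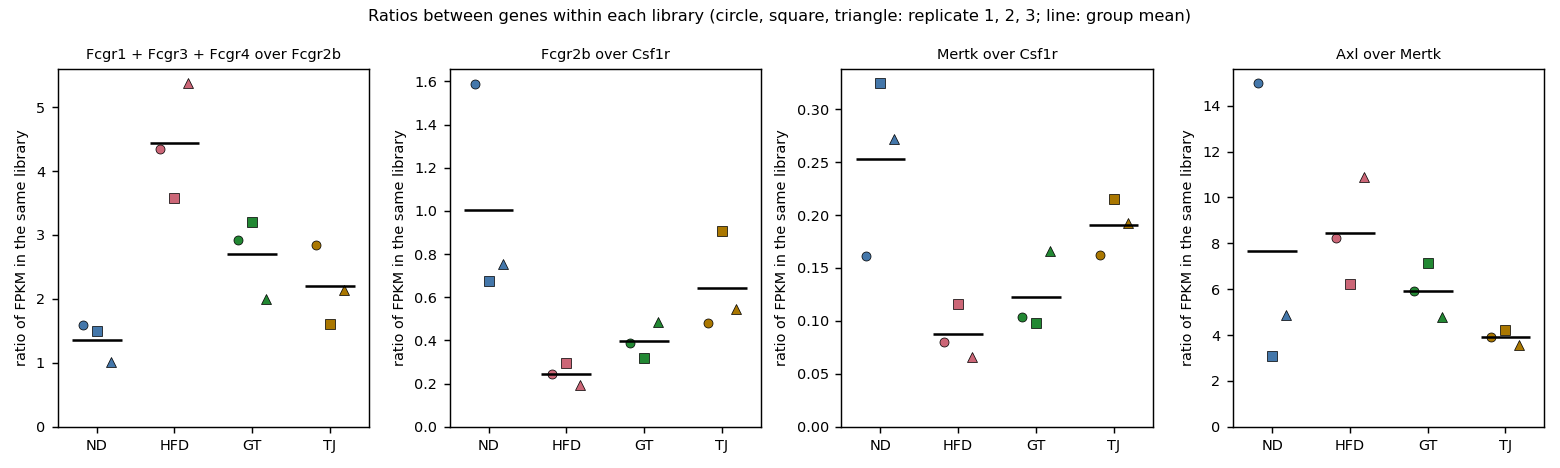
Ratios of FPKM within each library (vertical axes, from 0), by group, for activating over inhibitory Fc gamma receptors, Fcgr2b and Mertk over Csf1r, and Axl over Mertk. Points are libraries (circle, square and triangle for replicates 1, 2 and 3) and lines are means of 3. HFD was highest in the first ratio (3.58 to 5.37), HFD lay below TJ in both ratios to Csf1r, and TJ was lowest among the high-fat groups in the last (3.57 to 4.21). The mean of Csf1r itself was lower in TJ than in HFD.

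Genes that work beside these receptors were described by 5 lists. Their counts stand against 11.1% of all tested genes called lower and 7.41% called higher in TJ against HFD, 1.81% called lower in GT against HFD, and 1.73% called higher in HFD against ND (11.0% without ND replicate 1). With TJ replicate 1 or any single HFD library left out, 0 genes of the 5 lists and of the macrophage markers were called in TJ against HFD, and 0.0% of all genes. In HFD against ND 0 were called with the replicate block, and 0 to 2 per list without any single library other than ND replicate 1. Of all genes, 0.0% were called higher with the block, and 0.0% to 0.165% without such a library. Of 21 genes of ITAM and ITIM signalling, all tested, 13 were called lower and 0 higher in TJ against HFD, with a median log2 fold change of -1.06. The lowest was Inpp5d (-1.87), the lipid phosphatase SHIP1 recruited by FcγRIIb, at 39.9 ± 6.71 FPKM in HFD and 10.9 ± 4.84 FPKM in TJ (SD, n = 3). The highest was Bcl10 (-0.17), an adaptor below Dectin-1, which was not called. The 13 included Syk, Btk, Plcg2, Vav1 and the adaptor Tyrobp, which acts like FcRγ for other receptors. In HFD against ND 8 were called higher (19 without ND replicate 1). In GT against HFD limma called 0, with 13 at an unadjusted p under 0.05 (29.3% of all genes) and a median of -0.62.

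Of 18 other scavenger receptors 16 were tested in TJ against HFD, and 7 were called lower (Scara3, Scara5, Colec12, Cd68, Stab1, Stab2 and Mrc1). Cd68, a lysosomal protein of macrophages, was lowest at -2.10, from 487 ± 77.2 FPKM in HFD to 129 ± 71.4 FPKM in TJ (SD, n = 3). Scarf1, an endothelial scavenger receptor, was the highest and the single gene called higher, at 0.87. In GT against HFD 2 of 15 were called lower (Stab1 and Scarf2), and in HFD against ND 1 of 16 was called higher (Cd68), or 7 of 15 without ND replicate 1. The median log2 fold change of the list was -0.55 in TJ and -0.41 in GT against HFD.

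Of 18 partners of Mertk and Axl and other genes of apoptotic cell uptake 15 were tested, and 8 were called lower in TJ against HFD: Havcr2, C1qa, C1qb, C1qc, Elmo1, Itgav, Itgb3 and Tgm2. Havcr2 (TIM-3), a receptor of exposed phosphatidylserine, was lowest at -1.32. The ligand Gas6 was highest at 0.33 and was not called, with 59.6 ± 3.32 FPKM in HFD and 75.4 ± 6.17 FPKM in TJ (SD, n = 3), and Pros1, which encodes protein S, was at -0.30, also not called. In HFD against ND 3 were called higher, the complement genes C1qa, C1qb and C1qc (9 without ND replicate 1), and in GT against HFD 1 was called lower (Elmo1).

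Of 12 other C-type lectin receptors 10 were tested, and 3 were called lower in TJ against HFD (Clec4d, Clec5a and Clec12a), with Clec4d, which pairs with FcRγ, lowest at -1.84 and the dendritic cell lectin Cd209a highest at 0.77, not called. Clec4d was also the 1 gene of this list called lower in GT against HFD (-1.51). In HFD against ND 3 were called higher (Clec4d, Clec4a2 and Clec12a), or 6 without ND replicate 1. Of 11 other Fc receptors 4 were tested in TJ against HFD, since the rest, among them the IgE receptor subunits Fcer1a and Ms4a2, had means under 1 FPKM. Fcgrt, the neonatal Fc receptor that recycles IgG and albumin, was called higher in TJ, at 0.98, from 128 ± 20.5 FPKM in HFD to 259 ± 89.0 FPKM (SD, n = 3). Fcrla was the lowest at -0.63 and was not called. In TJ against GT limma called 0 genes in all 5 lists, with 0 to 7 per list at an unadjusted p under 0.05, as were 24.6% of all genes.

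**Figure D4:**
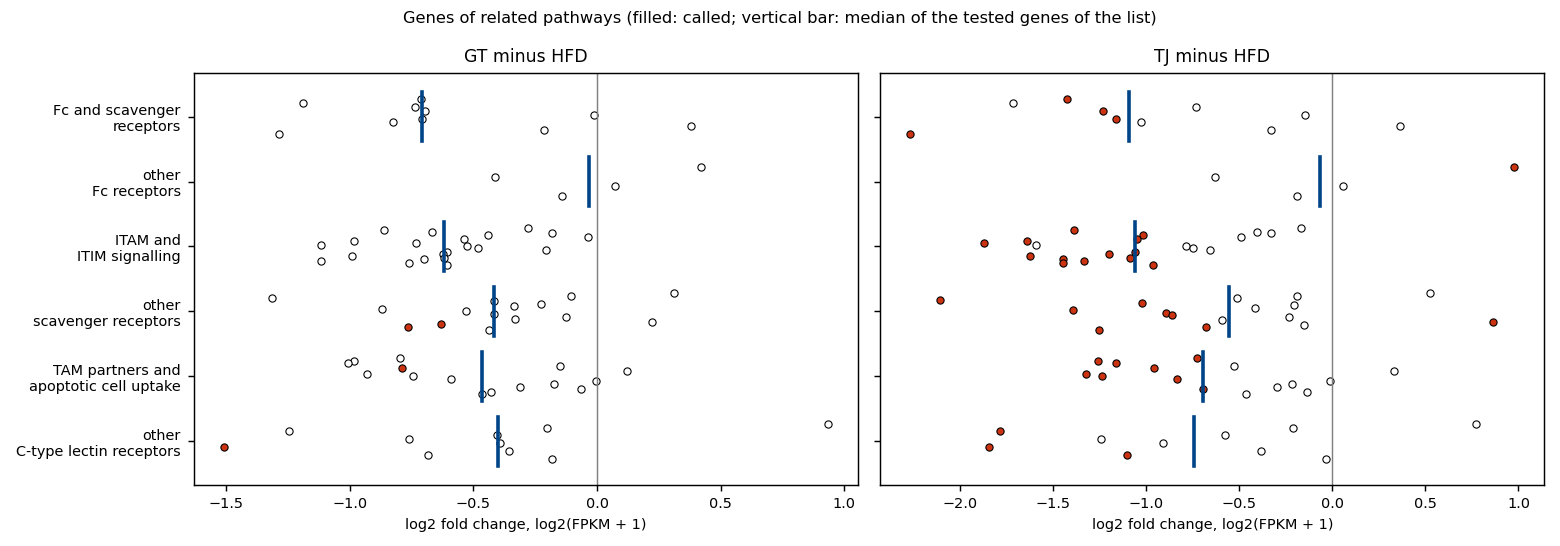
Log2 fold changes on the log2(FPKM + 1) scale (horizontal axes) for the receptor genes and the 5 related lists (vertical axis) in GT minus HFD and TJ minus HFD. Each point is a tested gene, filled where called, and each vertical bar the median of a list. In TJ minus HFD the medians were -1.09 for the receptor genes, -1.06 for ITAM and ITIM signalling and -0.07 for the other Fc receptors, of which Fcgrt was called higher.

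The genes with the most similar profiles were found over the 12 libraries among 13935 genes, by the root mean squared difference of log2(FPKM + 1) after each gene's own mean had been subtracted. Points of a profile share the diet groups and the depth of their libraries. Fcgr3 was most like Tifab (0.10), Was and the kinase gene Btk, and Fcgr1 most like Milr1 (0.13), Plk2 and Was. Fcgr4 was most like Lgmn (0.15), Fcgr3 and Metrnl, Fcer1g most like Cstb (0.13), Tnfaip8l2 and Arhgap9, and Fcgr2b most like Pde1b (0.11), Ptgir and Rbm3. Msr1 was most like Glipr1 (0.28), Soat1 and Gcnt1, Clec7a most like Gm49339 (0.20), with Sirpa also among its nearest 3, and Axl most like Heatr5a (0.14), B4galt6 and Nrp2. Mertk was most like Sept7 (0.16), Brox and Capn7, and Marco most like Mfsd3 (0.10), Creb3 and Tbcd. Over the 11 libraries without ND replicate 1, 7 of the 30 neighbours remained among the nearest 3 (Milr1 and Was for Fcgr1, Tifab and Was for Fcgr3, Pde1b, Cstb and Mfsd3), and the others were replaced. The nearest gene was then Tmem106a for Fcgr1 (0.11), Lrmp for Fcgr3 (0.10), Plaur for Fcgr4 (0.13) and Slfn2 for Fcer1g (0.11). It was Hpgds for Msr1 (0.13), Cdk17 for Mertk (0.12), Rab31 for Axl (0.09) and Clec12a for Clec7a (0.13). Pde1b and Mfsd3 stayed nearest to Fcgr2b and Marco.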

How the data were processed

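RNA of eWAT was sequenced from 12 libraries, 3 in each of the ND, HFD, GT and TJ groups, which were assigned by the labels. The authors mapped paired reads with STAR (version 2.4.0 in the submitters' processing notes, where CASAVA 1.8.2 is also named) and computed the deposited FPKM values with Cufflinks 2.1.1 and Ensembl annotation. Noncoding regions were masked, and multiread and fragment bias correction were applied. The methods name a human genome, but all 23474 identifiers are mouse identifiers. Their counts and count-based test were not used here.

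Symbols and coordinates came from GENCODE release M21 (GRCm38), which named 22671 identifiers, and promoters from RefSeq. Groups were compared in R 4.3.3 with limma 3.58.1 (lmFit, then eBayes with its trend option) on the log2 of FPKM + 1, with the 6 libraries of the groups compared. The filter kept genes averaging 1 FPKM or more, p-values were Benjamini-Hochberg adjusted over all of them, and calls needed an adjusted p under 0.05 and a fold of at least 1.5. Single ratios were compared with two-sided exact permutation tests (scipy 1.17.1). Depth was estimated from 2315 genes that have 1 transcript, of 1500 bases or more, and FPKM values give no counting error.

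The genes and lists were chosen with earlier results of these data known. The genes named are the 10 receptor genes, the tested genes with the lowest and highest log2 fold change of each related list in TJ against HFD, and the 3 genes nearest in profile to each receptor gene. The single nearest gene without ND replicate 1 is named too. One of the nearest genes and a member of a related list are not reported here by name. Other genes are named where a count is listed by its members or a marker is described, after their values had been seen. Alternatives were pseudocounts of 0.1 and 0.01, other filters, scalings and fits, the replicate number as a block, and each library left out in turn. Fits without ND replicate 1 over 11 libraries were added after the data had been seen. For HFD against ND the deviations from the group means of libraries with the same number correlated at 0.55, 0.34 and 0.12, each above 0.1, so the fit with the block is given beside the calls that it changes. The values printed come from the fit without the block. No source names anything that a number shares, and HFD replicate 3 correlated more with ND replicate 2 (0.63) than with its own number.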

Additional observations from a re-analysis of the deposited data

How the results depend on the processing

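Counts of called receptor genes moved with the settings in all 4 comparisons, and the cause was not tested unless fewer libraries or more genes were in the fit. For HFD against ND the main count was 5. It was 3 with a pseudocount of 0.1, 2 with a pseudocount of 0.01, 3 with no filter and 2 with quantile normalization, and it ran from 0 to 8 when 1 library was left out. With the replicate block, that is with the numbers taken as pairs, it was 0. For TJ against HFD the main count was 4. It was 0 with no filter, where more genes were tested, 0 with all 12 libraries in the fit, and 0 to 6 with 1 library left out. For GT against HFD the main count was 0, with 4 under array weights and 0 to 1 with 1 library left out. For TJ against GT it was 0, with 1 under array weights. The weights did not converge. The fit over 11 libraries, added after the data had been seen, called 7 for HFD against ND and 5 for TJ against HFD, with Clec7a added. With 1 library left out, 0.0% to 11.0% of all genes were called higher in HFD against ND. For TJ against HFD 0.0% to 16.8% were called lower, and for GT against HFD 0.0233% to 5.7%. In HFD against ND the block called 0.0% of all genes higher and the fit over 11 libraries 13.5%. Shares for the other alternatives are not given, here or for the lists below.

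Counts of the 5 related lists, over 10 alternatives each, moved to 0, or by more than 1.5 times, in 14 of 50 cases for TJ against HFD, 21 of 50 for GT against HFD, 18 of 50 for HFD against ND and 0 of 50 for TJ against GT. With no filter or with all 12 libraries in the fit, the 13 called genes of ITAM and ITIM signalling in TJ against HFD became 0.

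In the other comparisons at least 1 pair of same-numbered libraries did not correlate above 0.1. This does not show whether libraries of the same number share anything else. There the replicate block gave 5 calls for TJ against HFD (Clec7a added), 0 for GT against HFD and 0 for TJ against GT.

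Directions turned in small log2 fold changes that were not called. In TJ against HFD, leaving out 1 library gave -0.26 to 0.028 for Fcgr2b and -0.53 to 0.0004 for Mertk, the upper ends without TJ replicate 2. In GT against HFD, Fcgr2b was 0.12 with median-of-ratios scaling, 0.088 with quantile normalization, 0.006 with array weights and -0.19 to 0.15 with 1 library left out. In TJ against GT, array weights gave 0.016 for Fcgr2b, 0.14 for Fcgr4 and 0.16 for Mertk, quantile normalization gave -0.14 for Fcer1g and 0.030 for Marco, and median-of-ratios scaling gave 0.0001 for Marco. There, leaving out 1 library gave -0.30 to 0.044 for Fcgr2b, -0.59 to 0.16 for Fcgr4, -0.39 to 0.34 for Fcer1g, -0.078 to 0.024 for Marco, -0.32 to 0.21 for Mertk and -0.97 to 0.10 for Clec7a. The log2 difference of Axl over Mertk between HFD and ND ran from -0.052 without ND replicate 2 to 1.09 without ND replicate 1. No log2 fold change of a called gene changed sign in its comparison under any setting tried. With 3 libraries a group and FPKM in place of counts, the precision rests on the spread between libraries alone.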
